A study of Homo sapiens with 6 samples.

Results

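RNA was sequenced from PC9-BrM3, a human lung adenocarcinoma subline of PC9 that metastasizes to the brain, and the genes described are 46 that build the centromere and kinetochore or signal from them, including the chromosomal passenger complex and the spindle checkpoint. They were chosen by symbol from a list of such genes, and all 46 were found among the 58735 genes of the deposited table. BrM3-shAKR1B10 cells carried an shRNA against AKR1B10, an aldo-keto reductase, and are given the genotype AKR1B10 knockdown in the labels. BrM3-shNC cells carried a negative control shRNA and are given the genotype WT. Both groups share the PC9-BrM3 background, which was selected by repeated heart injection of PC9 cells into immunodeficient mice and recovery from brain metastases, both received shRNA through the lentiviral vector LV2, and both were in routine culture with no drug. The study silenced AKR1B10 to ask how it acts on metabolism, on the cell cycle and on the response to pemetrexed. A single shRNA sequence against AKR1B10 was used for sequencing (sh1), so an effect of AKR1B10 loss and an effect of that sequence cannot be told apart. Each group has 3 libraries. The paper mentions at least 3 independent experiments for its quantitative data in general, but does not tie this to the sequencing. Separate cultures are therefore not assured, and the p-values measure only the spread between these libraries, which may be technical.

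Kinetochores are protein assemblies that form on centromeric chromatin and hold chromosomes to spindle microtubules. Nucleosomes with the histone variant CENP-A mark the site, a constitutive network of CENP proteins sits on them through the cell cycle, and in mitosis the KMN network (the KNL1, MIS12 and NDC80 complexes) is added and grips microtubules. The chromosomal passenger complex releases wrong attachments, and the spindle checkpoint delays anaphase until every kinetochore is attached. Transcripts of many of these proteins are known to rise toward G2 and mitosis.

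The silenced gene was lower in each library of its group. AKR1B10 was at 108.3, 107.2 and 110.2 FPKM (fragments per kilobase of transcript, scaled by a size for each library) in BrM3-shAKR1B10 and at 798.7, 775.0 and 772.0 FPKM in BrM3-shNC (log2 fold change -2.85, SE 0.0300, limma). An exact two-sided permutation test of 3 against 3 libraries gave p = 0.1, the smallest that its 20 splits allow. The libraries held 16964504 to 18709028 reads on genes. Summed markers of an epithelial tumor line (EPCAM, CDH1, EGFR, MUC1 and keratins, with NKX2-1) lay between 2794 and 2856 FPKM in BrM3-shAKR1B10 and between 2575 and 2871 FPKM in BrM3-shNC. Keratins made up most of that sum, and KRT8, KRT18 and KRT19 each overlapped between the groups. MUC1 was higher (log2 fold change 0.63, adjusted p = 0.000562), EPCAM (-0.24) and EGFR (-0.13) lay lower and CDH1 (0.16) higher without overlap but below the size threshold, and NKX2-1, a lung lineage factor, was near 0. Markers of other cell types were low but not equal between the groups. Summed fibroblast markers lay at 1.2 to 1.37 FPKM in BrM3-shAKR1B10 and 2.03 to 2.08 in BrM3-shNC, endothelial markers at 2.10 to 2.37 and 1.52 to 1.79, leukocyte markers at 0.285 to 0.362 and 0.497 to 0.566, and glial and neuronal markers at 2.64 to 2.76 and 3.47 to 3.68. Single genes made up most of 3 of these sums. COL1A1 was lower (mean 1.22 against 1.98 FPKM, log2 fold change -0.67, adjusted p = 0.00319). CDH5 was higher (1.85 against 1.14 FPKM, 0.65, adjusted p = 0.00390), while PECAM1, too low to be tested, lay lower (0.272 against 0.438 FPKM). MBP did not pass by size (-0.40). COL1A2, LUM, DCN, KDR and LYZ were at 0 in all 6, and the part of these markers in the results was not tested.

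In BrM3-shAKR1B10 most of the centromere and kinetochore transcripts were called lower, and none was called higher. Of the 45 genes with a mean of at least 1 FPKM, 33 fell (limma on log2(FPKM + 0.1), Benjamini-Hochberg adjusted p under 0.05 and a log2 fold change under -0.5) and 12 did not pass. Over all 13150 genes tested, 7.45% were lower (980) and 5.83% higher (766) by the same thresholds. That balance turned with the scaling, at 852 lower and 879 higher genes under TPM scaling and 852 and 976 by voom on recovered reads, while 30 of the 45 centromere and kinetochore genes were lower in each. No centromere or kinetochore gene was higher by limma, none at an unadjusted p under 0.05, and none by voom. Their median log2 fold change was -0.85, against -0.01 over all genes tested, and 44 of the 45 lay below 0. The genes with log2 fold changes at or below -1 numbered 15, and 1.56% of all genes were called lower by that much. In bulk RNA, fewer cells in G2 and mitosis and less RNA of these genes per cell cannot be told apart. By flow cytometry the paper reports a significant arrest of the cell cycle in PC9-BrM3 when AKR1B10 was silenced. Its part in these RNA levels was not tested.

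The groups stood apart library by library. Summed over the 46 genes, the level was 400.7, 398.4 and 395.2 FPKM in BrM3-shAKR1B10 and 698.6, 694.1 and 690.0 FPKM in BrM3-shNC, so the silenced sum was 57.3% of the control sum. For 43 of the 45 tested genes each silenced library lay below each control library, which held for 29.2% of all genes tested. The 2 that overlapped were CENPC and CENPT. Of the 12 genes that did not pass, 9 had an adjusted p under 0.05 with a smaller change, so that 42 of the 45 were lower by the adjusted p alone, against 23.1% of all genes. The median coefficient of variation between libraries was 5.71% in BrM3-shAKR1B10 and 4.14% in BrM3-shNC. Counts were high enough for most of the 46, 43 of which had at least 100 reads in each library. Control level and log2 fold change were weakly related across the 45 genes (Pearson -0.26, Spearman -0.25, a description over genes of the same libraries).

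**Figure D1:**
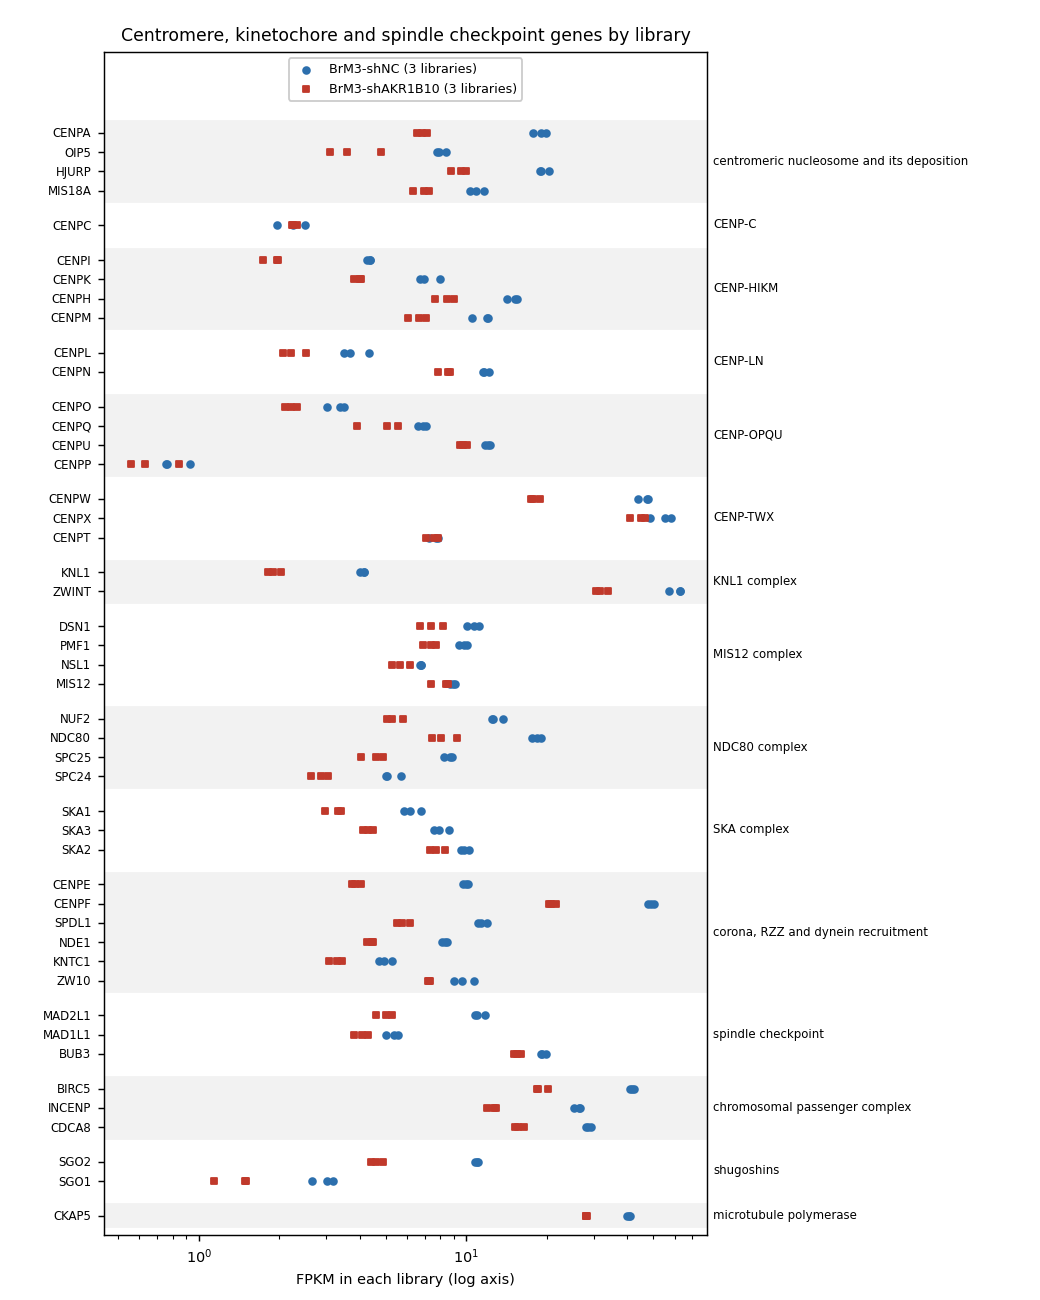
Level of each of the 46 genes in each library in FPKM (log axis), grouped by role, with BrM3-shNC as blue circles and BrM3-shAKR1B10 as red squares. CENPC and CENPT overlap between the groups, as does CENPP, which was too low to be tested, while CENPA sits at 6.57 to 7.15 FPKM in the silenced libraries and at 17.8 to 19.9 FPKM in the controls.

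The centromeric nucleosome and its loading factors all fell, 4 of 4. CENPA (chr2:26764289-26801067, plus strand, GRCh38), the histone H3 variant that defines the centromere, had the lowest fold change of the 45. It was at 6.85, 7.15 and 6.57 FPKM in BrM3-shAKR1B10 and at 17.8, 19.9 and 19.0 FPKM in BrM3-shNC. The silenced mean was 36.4% of the control mean (log2 fold change -1.45, SE 0.0551, adjusted p = 1.48e-05), and the groups lay far apart. HJURP, the chaperone that delivers CENP-A to centromeres, stood at 48.5% of control (log2 fold change -1.04). OIP5, a subunit of the Mis18 complex that licenses this loading, was at 3.57, 3.09 and 4.79 FPKM against 7.89, 7.75 and 8.42 FPKM (log2 fold change -1.07, SE 0.149, adjusted p = 0.00171). Its silenced libraries were spread more widely than those of CENPA, on 69 to 105 reads, yet all were below the controls. OIP5 shares 38.0% of its exon bases with the antisense gene OIP5-AS1, which had up to 1163 reads in a library and did not pass (log2 fold change -0.10), and whether counting used the strand is not given in the sources used here. MIS18A, its partner, was at 6.93, 6.33 and 7.23 FPKM against 10.8, 10.3 and 11.6 FPKM, the smallest change among these 4 (log2 fold change -0.67, adjusted p = 0.000443).

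The constitutive network was split, with 8 of 13 tested genes lower and a median log2 fold change of -0.55. CENPC, which ties the CENP-A nucleosome to the outer kinetochore, was at 2.23, 2.26 and 2.34 FPKM in BrM3-shAKR1B10 and 2.25, 2.49 and 1.97 FPKM in BrM3-shNC, and the groups overlapped (log2 fold change 0.03, 95% interval -0.21 to 0.27, adjusted p = 0.843). CENPT, which forms the other arm from chromatin to the NDC80 complex, was at 7.84, 7.06 and 7.56 FPKM and 7.84, 7.26 and 7.70 FPKM (log2 fold change -0.02, 95% interval -0.15 to 0.11, adjusted p = 0.778). Both intervals lay inside the change of 0.5 in either direction that was used as a threshold. CENPW (chr6:126340174-126348875, plus strand), the histone-fold partner of CENPT, was at 17.8, 17.5 and 18.8 FPKM against 47.7, 43.7 and 47.4 FPKM with no overlap. That was 39.0% of control and the second lowest fold change of all 45 (log2 -1.35, SE 0.0477, adjusted p = 1.15e-05). CENPX, the histone-fold partner of CENPS, had the highest FPKM of the 46 in the silenced libraries and did not pass by size (log2 fold change -0.29, adjusted p = 0.0230).

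All 4 genes of the CENP-HIKM group fell. CENPI (chrX:101098218-101163681, plus strand) had the lowest fold change of the group, at 1.98, 1.96 and 1.74 FPKM against 4.38, 4.37 and 4.25 FPKM (log2 -1.16, SE 0.0723, adjusted p = 6.93e-05). CENPM had the smallest change, at 7.10, 6.04 and 6.66 FPKM against 10.5, 12 and 12 FPKM (log2 -0.79, adjusted p = 0.000440). CENPK stood at 54.7% and CENPH at 55.7% of control, close to each other. In the CENP-LN pair, CENPL was lower (log2 fold change -0.73), while CENPN, which reads the CENP-A nucleosome directly, missed the size threshold at -0.49 with an adjusted p of 0.000538 and passed it in 4 of the 6 fits that left out a library.

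In the CENP-OPQU group 2 of 3 tested genes fell, a count that was 1 under TPM scaling and voom and 0 at a pseudocount of 1. CENPO was at 2.21, 2.33 and 2.11 FPKM against 3.48, 3.39 and 3.01 FPKM (log2 fold change -0.55, SE 0.0820, adjusted p = 0.00234), with 27.0% of its exon bases shared with ADCY3, an adenylyl cyclase gene on the opposite strand that was itself lower (log2 fold change -0.59). CENPQ passed narrowly (log2 fold change -0.51, adjusted p = 0.0170), and its call was lost under those 3 settings and without BrM3-shAKR1B10 replicate 3 (-0.36) or BrM3-shNC replicate 2 (-0.49). CENPU, a docking site for the kinase PLK1, was at 10.0, 9.51 and 9.76 FPKM against 12.3, 11.8 and 12.1 FPKM, and although its libraries did not overlap the change was below the size threshold (log2 -0.30, adjusted p = 0.00123). CENPP was not tested because its mean FPKM was under 1. It had 97, 111 and 147 reads in BrM3-shAKR1B10 and 136, 126 and 166 reads in BrM3-shNC, groups that overlapped, and it shares 38.0% of its exon bases with IPPK on the opposite strand, which was higher (log2 fold change 0.57).

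Within the KMN network, 7 of 10 genes fell, with a median log2 fold change of -0.89. The NDC80 complex, the rod that binds microtubules, fell in all 4 subunits. NUF2 (chr1:163266576-163355764, plus strand) was at 5.07, 5.26 and 5.82 FPKM against 13.7, 12.4 and 12.6 FPKM (log2 fold change -1.25, SE 0.0663, adjusted p = 3.70e-05). NDC80 (chr18:2571511-2616635, plus strand), with which it forms the microtubule-binding end, was at 8.02, 9.26 and 7.44 FPKM against 19.1, 18.4 and 17.6 FPKM (log2 fold change -1.15, SE 0.0819, adjusted p = 0.000113). SPC24, at the end that anchors in the kinetochore, changed least of the 4, at 2.87, 3.04 and 2.62 FPKM against 5.05, 5.69 and 5.02 FPKM (log2 -0.86, adjusted p = 0.000321). SPC25, its partner, stood at 52.4% of control. No silenced library reached a control library in any of these 4 subunits.

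The KNL1 complex fell as well. KNL1, the scaffold on which checkpoint proteins gather, stood at 46.8% of control (log2 fold change -1.06), and ZWINT, its binding partner and the gene with the highest control mean of the 46 at 60.8 FPKM, stood at 52.7% (log2 -0.92).

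The MIS12 complex, the joint between the inner network and NDC80, had 1 of 4 genes lower. DSN1 was at 8.16, 6.69 and 7.41 FPKM against 11.2, 10.6 and 10.1 FPKM (log2 fold change -0.52, SE 0.0786, adjusted p = 0.00253). Its call was lost at a pseudocount of 1 (-0.47), under TPM scaling (-0.48) and voom (-0.48), and without BrM3-shAKR1B10 replicate 2 (-0.45) or BrM3-shNC replicate 1 (-0.48), which leaves 0 of 4. MIS12 itself was at 8.39, 8.54 and 7.39 FPKM against 9.06, 8.90 and 8.71 FPKM (log2 fold change -0.13, 95% interval -0.28 to 0.01, adjusted p = 0.127). Its libraries did not overlap between groups, but the gap was small beside the spread of the silenced libraries. PMF1 (log2 -0.41) and NSL1 (log2 -0.24) lay between them and did not pass by size.

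The SKA complex, which steadies attachments on growing and shrinking microtubules, was lower in 2 of 3 genes. SKA1 was at 3.40, 3.32 and 2.96 FPKM against 5.86, 6.80 and 6.17 FPKM (log2 fold change -0.94, adjusted p = 0.000222), and SKA3 stood at 53.7% of control. SKA2 was at 8.36, 7.72 and 7.31 FPKM against 10.2, 9.54 and 9.83 FPKM and did not pass by size (log2 -0.34, adjusted p = 0.00452).

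Among the 6 genes of the fibrous corona and dynein recruitment, 5 fell. CENPE (chr4:103105806-103198409, minus strand), a kinesin that carries chromosomes toward the spindle equator, was at 4.05, 3.75 and 3.83 FPKM against 10.1, 9.97 and 9.69 FPKM (log2 fold change -1.34, SE 0.0471, adjusted p = 1.15e-05). CENPF (chr1:214603195-214664588, plus strand), a large coiled-coil protein of the corona, was at 20.4, 21.7 and 20.8 FPKM against 50.4, 47.7 and 49.1 FPKM (log2 fold change -1.22, SE 0.0381, adjusted p = 9.91e-06). Its adjusted p was the lowest of the 45 genes, on 4211 to 4579 reads in the silenced libraries. SPDL1, the dynein adaptor Spindly, stood at 50.6% of control and NDE1, a dynein regulator, at 53.1%. Of the RZZ complex, which builds the corona, KNTC1 fell (log2 -0.59, adjusted p = 0.000785), though not at a pseudocount of 1 (-0.49), where 4 of these 6 genes were called. ZW10 was at 7.30, 7.18 and 7.26 FPKM against 10.7, 9.62 and 9.03 FPKM, short of the size threshold (log2 -0.42, adjusted p = 0.00255).

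Of the 3 checkpoint genes, 1 fell. MAD2L1 (chr4:120055608-120067074, minus strand), which encodes the MAD2 protein that is turned into the anaphase inhibitor at unattached kinetochores, was at 5.26, 5.03 and 4.6 FPKM against 11.7, 11.0 and 10.8 FPKM (log2 fold change -1.15, SE 0.0618, adjusted p = 3.85e-05). BUB3, an adaptor that binds phosphorylated KNL1, was at 15.1, 16 and 15.5 FPKM against 19.8, 19.1 and 19.2 FPKM. The BUB3 groups did not overlap, but the change was below the size threshold (log2 -0.32, SE 0.0370, adjusted p = 0.000839). MAD1L1, the kinetochore template for MAD2, did likewise (log2 -0.38, adjusted p = 0.00378).

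The chromosomal passenger complex fell in each of its 3 genes among the 46. BIRC5 (chr17:78214186-78225636, plus strand), known as survivin, was at 18.5, 20.2 and 18.4 FPKM against 41.6, 40.8 and 42.4 FPKM (log2 fold change -1.13, SE 0.0450, adjusted p = 1.66e-05). INCENP (chr11:62123973-62153163, plus strand), the scaffold that activates Aurora B, was at 11.9, 12.7 and 12.9 FPKM against 25.3, 26.5 and 26.7 FPKM (log2 fold change -1.06, SE 0.0430, adjusted p = 1.75e-05). CDCA8, known as borealin, was at 15.2, 15.6 and 16.5 FPKM against 28.5, 29.2 and 27.9 FPKM (log2 -0.85, adjusted p = 2.84e-05). The silenced libraries of all 3 genes lay below the controls with no overlap. AURKB, which encodes the kinase Aurora B of this complex, is not among the 46 and fell too (log2 -1.11, adjusted p = 7.34e-05).

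Both shugoshins, which shield centromeric cohesin from early cleavage, fell. SGO2 (chr2:200510008-200583782, plus strand) was at 4.89, 4.6 and 4.42 FPKM against 11.1, 10.9 and 10.8 FPKM (log2 fold change -1.22, SE 0.0486, adjusted p = 1.62e-05). SGO1, read at lower depth with 77 to 104 reads in the silenced libraries, stood at 46.7% of control (log2 -1.05, SE 0.134). CKAP5, a microtubule polymerase, fell by less, to 69.8% of control, with silenced libraries at 28.3, 28.1 and 28.1 FPKM and controls at 40.4, 40.8 and 39.8 FPKM (log2 -0.52, SE 0.0281, adjusted p = 3.93e-05), and was not called under TPM scaling (-0.48) or by voom (-0.47).

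**Figure D2:**
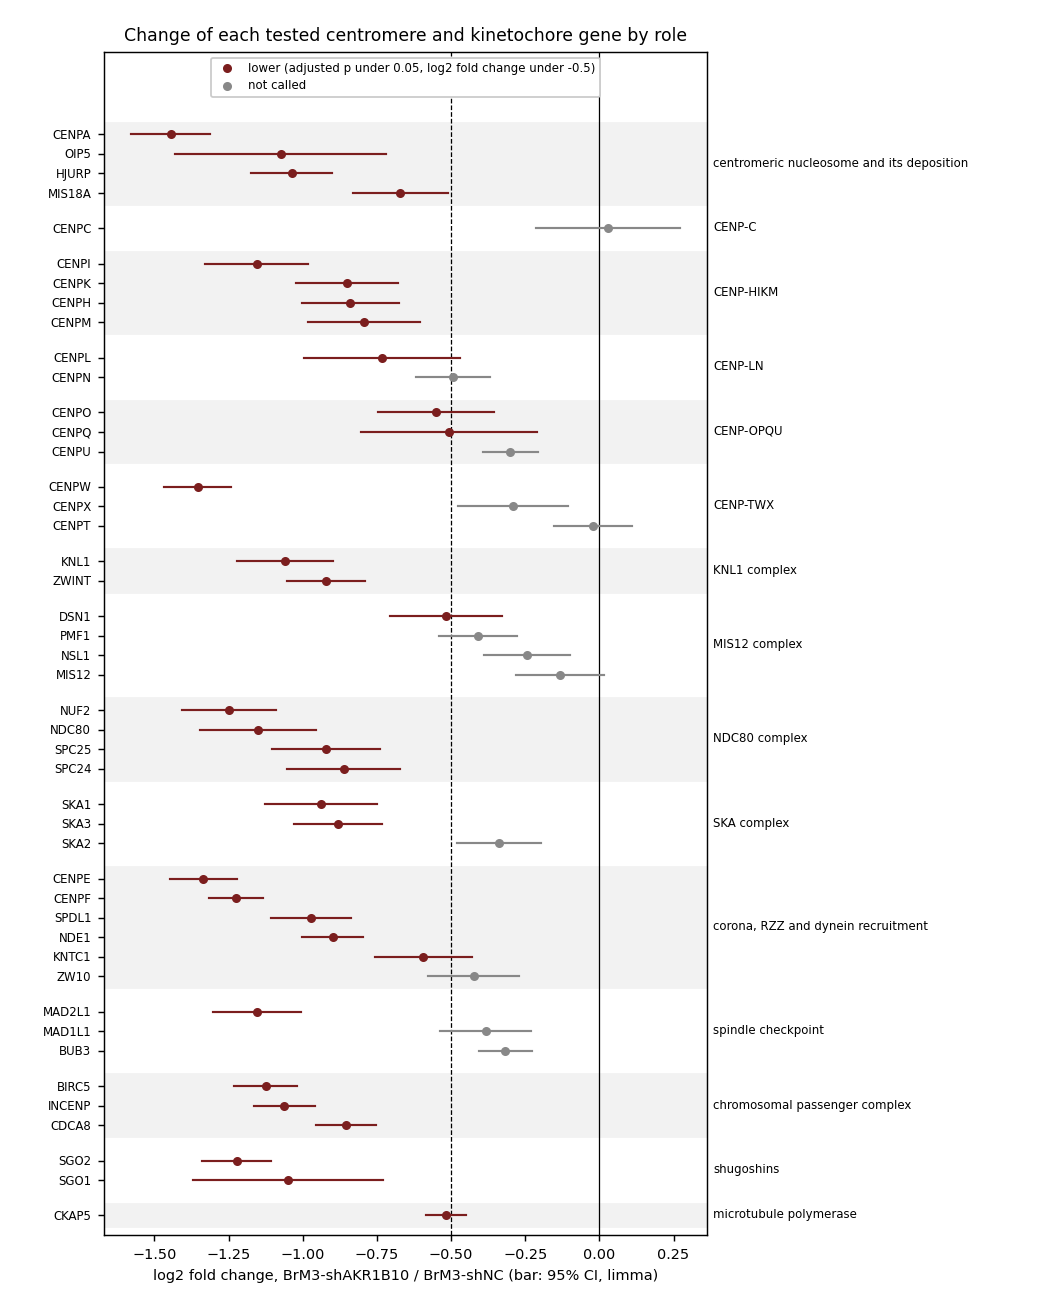
Log2 fold change of the 45 tested genes with the 95% interval from limma, grouped by role, in dark red where called lower and in gray where not called, with the dashed line at the size threshold of -0.5. The NDC80 and CENP-HIKM groups lie wholly left of the line, and 3 of the 4 MIS12 complex genes lie right of it, as do CENPC and CENPT.

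Subunits of the same complex were then set against each other within each library, for 10 textbook pairs chosen after the values were seen, as a description with no test. For 6 pairs the ratio of FPKM overlapped between the groups. NDC80 to NUF2 was 1.54 ± 0.245 (SD, n = 3) in BrM3-shAKR1B10 and 1.42 ± 0.0496 in BrM3-shNC. INCENP to BIRC5 was 0.656 ± 0.0376 and 0.629 ± 0.0195, and CENPH to CENPK was 2.12 ± 0.199 and 2.09 ± 0.124. SPC25 to SPC24 was 1.59 ± 0.175 and 1.64 ± 0.108. In these 4 pairs the group means differed by less than the larger SD. CENPL to CENPN was 0.273 ± 0.0428 and 0.326 ± 0.0431, and CENPQ to CENPU was 0.497 ± 0.0926 and 0.569 ± 0.0313, so that the mean was lower in BrM3-shAKR1B10 in both although single libraries overlapped. The other 4 pairs did not overlap. CENPW to CENPT was 2.27, 2.48 and 2.48 in the silenced libraries and 6.08, 6.02 and 6.15 in the controls, the widest gap of the 10. MAD2L1 to MAD1L1 was 1.38, 1.17 and 1.13 against 2.33, 2.05 and 1.95. Smaller gaps without overlap were seen for DSN1 to NSL1 (1.30 ± 0.109 and 1.58 ± 0.0764) and PMF1 to MIS12 (0.910 ± 0.121 and 1.10 ± 0.0199).

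The promoters of these genes were searched for short words known from late cell cycle promoters. Promoter windows of 300 bases (250 before and 50 after the RefSeq start, GRCh38.p14, both strands searched) were held for 38 of the 46 genes, 26 of them called lower and 11 tested and not called. No window was held for MIS18A, CENPH, CENPM, CENPL, KNL1, KNTC1, BUB3 and BIRC5. The 8 windows printed were chosen after the values were seen, to set genes that fell from several complexes (CENPA, CENPW, CENPE, CENPF, NDC80 and CDCA8) beside CENPT and CENPC, whose groups overlapped. Each is written from 5′ to 3′ along its gene, and capitals mark TTTGAA, the word of the cell cycle homology region (CHR). Its variant TTCGAA and the box bound by NF-Y, CCAAT, are in capitals too. A match on the opposite strand is capitalized in the form it takes on the printed strand, which for the box is ATTGG and for the CHR word TTCAAA. Where the box and a CHR word share bases, as in CDCA8, the capitals run together. They lie at chr2:26785806-26786105 (plus strand) for CENPA, chr6:126339865-126340164 (plus strand) for CENPW, chr4:103198294-103198593 (minus strand) for CENPE, chr1:214602945-214603244 (plus strand) for CENPF, chr18:2571307-2571606 (plus strand) for NDC80, chr1:37692266-37692565 (plus strand) for CDCA8, chr16:67847644-67847943 (minus strand) for CENPT and chr4:67545454-67545753 (minus strand) for CENPC.
CENPA: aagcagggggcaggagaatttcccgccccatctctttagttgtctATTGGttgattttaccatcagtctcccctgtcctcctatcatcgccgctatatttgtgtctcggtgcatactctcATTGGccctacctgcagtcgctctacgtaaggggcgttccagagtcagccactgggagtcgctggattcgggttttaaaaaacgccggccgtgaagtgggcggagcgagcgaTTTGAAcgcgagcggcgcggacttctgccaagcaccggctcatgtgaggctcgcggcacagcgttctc
CENPW: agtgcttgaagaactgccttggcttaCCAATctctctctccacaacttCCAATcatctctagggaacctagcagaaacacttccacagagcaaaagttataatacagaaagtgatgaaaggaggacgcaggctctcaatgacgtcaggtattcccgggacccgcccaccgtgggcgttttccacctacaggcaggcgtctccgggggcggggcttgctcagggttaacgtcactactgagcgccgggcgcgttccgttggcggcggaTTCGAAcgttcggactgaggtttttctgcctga
CENPE: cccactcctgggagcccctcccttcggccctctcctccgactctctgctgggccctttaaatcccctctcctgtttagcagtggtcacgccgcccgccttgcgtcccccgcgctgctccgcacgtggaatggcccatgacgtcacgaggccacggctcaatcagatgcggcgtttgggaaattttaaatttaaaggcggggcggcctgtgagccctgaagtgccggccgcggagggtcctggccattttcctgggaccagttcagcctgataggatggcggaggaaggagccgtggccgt
CENPF: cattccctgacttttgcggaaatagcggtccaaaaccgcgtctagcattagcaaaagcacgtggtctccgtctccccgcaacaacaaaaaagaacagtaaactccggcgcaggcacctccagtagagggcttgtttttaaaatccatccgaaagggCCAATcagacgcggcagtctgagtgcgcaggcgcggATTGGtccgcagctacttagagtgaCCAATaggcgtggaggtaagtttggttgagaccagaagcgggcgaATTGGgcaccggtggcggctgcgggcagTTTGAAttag
NDC80: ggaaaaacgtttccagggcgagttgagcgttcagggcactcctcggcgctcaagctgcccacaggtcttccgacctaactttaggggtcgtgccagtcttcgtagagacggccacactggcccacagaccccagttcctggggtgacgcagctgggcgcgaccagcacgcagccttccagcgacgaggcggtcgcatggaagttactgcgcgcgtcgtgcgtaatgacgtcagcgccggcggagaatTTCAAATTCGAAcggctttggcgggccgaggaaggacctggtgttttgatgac
CDCA8: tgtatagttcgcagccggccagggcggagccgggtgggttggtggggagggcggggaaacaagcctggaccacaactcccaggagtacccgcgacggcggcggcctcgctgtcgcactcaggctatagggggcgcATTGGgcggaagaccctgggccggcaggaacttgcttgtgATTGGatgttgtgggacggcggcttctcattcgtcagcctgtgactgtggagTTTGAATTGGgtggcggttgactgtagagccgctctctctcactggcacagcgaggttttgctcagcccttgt
CENPT: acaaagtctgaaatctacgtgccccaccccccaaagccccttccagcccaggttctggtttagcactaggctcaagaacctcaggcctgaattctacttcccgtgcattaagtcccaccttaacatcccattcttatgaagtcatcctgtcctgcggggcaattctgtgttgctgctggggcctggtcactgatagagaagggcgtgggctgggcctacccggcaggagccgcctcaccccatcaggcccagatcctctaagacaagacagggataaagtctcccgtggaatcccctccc
CENPC: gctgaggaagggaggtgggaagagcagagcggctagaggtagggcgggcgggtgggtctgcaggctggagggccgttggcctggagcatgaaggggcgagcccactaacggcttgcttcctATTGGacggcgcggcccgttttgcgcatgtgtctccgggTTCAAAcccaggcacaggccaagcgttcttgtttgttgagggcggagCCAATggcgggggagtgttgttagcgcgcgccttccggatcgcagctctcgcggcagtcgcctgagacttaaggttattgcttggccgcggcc

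CENPA, CENPW, CENPF, NDC80 and CDCA8 hold a CHR word within 50 bases of the start. In CENPA it begins 18 bases before the start and in CENPW 18 bases into the transcript. NDC80 holds both forms side by side, at positions -3 and 4. CENPE, with the third lowest fold change of the 45, holds none of the words in this window, and neither does CENPT. CENPC holds TTTGAA, on the other strand and 90 bases before the start.

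By gene, TTTGAA or TTCGAA was found in 18 of the 26 lower genes with a window (69.2%), in 3 of the 11 that were not called (27.3%), and in 14.8% of the 8901 tested genes that had a window. The lower genes without it were CENPE, CENPI, CENPK, CENPQ, DSN1, NDE1, SGO2 and SPC24, and those with it among the genes not called were CENPC, CENPN and ZW10. Among all genes called lower in the series it was in 28.1%, and among all 35116 RefSeq windows in 16.4%. By window, it was in 19 of the 30 windows of lower genes (63.3%) and in 14 of the 50 windows of the other kinetochore genes described below (28%). Counting a site in overlapping windows of a gene once, 18 of the 21 sites in lower centromere and kinetochore genes began within 50 bases of a start (85.7%). Of the 3 sites in genes not called 1 did, and of the 1575 sites in tested genes 29%. CCAAT was in 18 of 26 lower genes (69.2%), 8 of 11 genes not called (72.7%) and 42.9% of tested genes. The E2F core TTCCCGC was in 5 of 26 lower genes (19.2%), 3 of 11 not called (27.3%) and 13.1% of tested genes. TTTCCCGC, which contains that core, was in 1 of the 30 windows of lower genes (3.33%, CENPA), 2 of the 12 windows of genes not called (16.7%, both MIS12), 2.54% of the windows of tested genes and 1.63% of all windows. The E2F word TTTGGCGC was in 1 of 26 lower genes (OIP5) and in none of the 11, with 1.40% of tested genes. These are counts of letters in the window and no evidence of binding. They carry no test, and several windows can belong to 1 gene.

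Some of these genes share their start region with a neighbor read from the other strand. Taking protein-coding genes whose start lies within 1000 bases on the opposite strand, 15 of the 46 had such a neighbor, and all 15 neighbors were tested. The neighbors had a median log2 fold change of -0.01, against -0.66 for the tested genes beside them, and 4 of the 15 fell and 11 did not pass, while 10 of the 14 tested kinetochore genes beside them fell (CENPP was not tested). CENPK (log2 fold change -0.85) lies beside PPWD1, which was at 11.7, 13.2 and 10.7 FPKM against 12.6, 11.8 and 11.4 FPKM (log2 -0.01, adjusted p = 0.930). SKA3 (-0.88) lies beside the mitochondrial ribosome gene MRPL57 (0.12), NDE1 (-0.90) beside MARF1 (0.04) and CDCA8 (-0.85) beside C1orf109 (0.10). In these pairs the kinetochore gene moved and its neighbor did not pass.

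Among the neighbors that fell were NUSAP1 beside OIP5 (log2 fold change -1.14), METTL4 beside NDC80 (-0.62) and PRR11 beside SKA2. PRR11 was at 8, 7.11 and 7.37 FPKM against 15.5, 17.6 and 18.8 FPKM (log2 -1.19, SE 0.0790, adjusted p = 8.59e-05), so in that pair the neighbor fell and SKA2 (-0.34) did not pass. In each neighbor pair named above, the 2 genes do not overlap. Other pairs do overlap at their starts, such as CENPX with LRRC45, CENPO with PTRHD1, CENPP with NOL8 and MIS12 with DERL2. With strand use in counting not given in the sources used here, reads in those overlaps cannot be assigned to either gene.

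**Figure D3:**
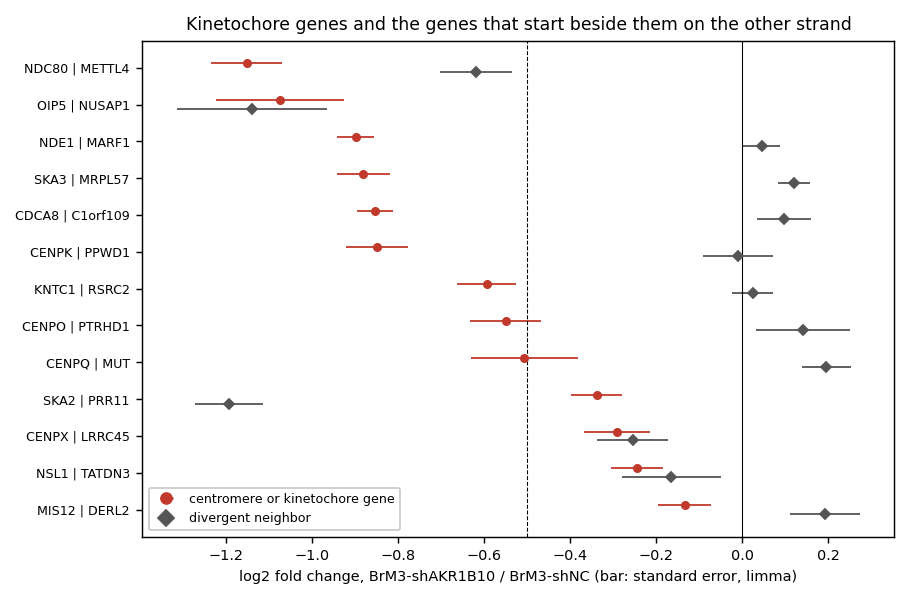
Log2 fold change with its standard error (limma) for kinetochore genes (red circles) and the protein-coding genes that start within 1000 bases on the other strand (gray diamonds), with the dashed line at -0.5. NDE1 (-0.90), SKA3 (-0.88), CDCA8 (-0.85) and CENPK (-0.85) lie left of the line while their neighbors lie between -0.01 and 0.12, and PRR11 (-1.19) lies left of SKA2 (-0.34).

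Exon overlap with another gene was common, in 18 of the 46, and reached at least 10% of the exon bases in 9 (OIP5, CENPP, CENPO, PMF1, SGO1, NDE1, CENPN, CENPU and CENPT). Of these 9, 4 were called lower. Without them, 29 of the 37 tested genes were lower. Among the genes lying over these 9, PMF1-BGLAP had at most 5 reads in a library, SGO1-AS1 at most 6 and MYH11, over NDE1, at most 27. The others had more. ADCY3 had up to 1266 reads (CENPO up to 352), OIP5-AS1 up to 1163 (OIP5 190) and IPPK up to 332 (CENPP 166). CMC2 over CENPN had up to 576, PRIMPOL over CENPU up to 294 and TSNAXIP1 over CENPT up to 102. With strand use not given, the values of these genes carry that limit. The 9 processed or other pseudogenes named after these genes had at most 1 read in any library.

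Other genes of the same structures were read beside them. Of 42 further kinetochore, checkpoint and attachment genes, 19 fell and none rose by limma, with a median log2 fold change of -0.46. None rose by voom either, and 4 lay higher at an unadjusted p under 0.05. BUB1, the checkpoint kinase that docks on KNL1, was at 8.88, 9.39 and 8.76 FPKM against 22.8, 22.7 and 21.4 FPKM (log2 -1.30, adjusted p = 1.12e-05). CDC20, the activator of the anaphase-promoting complex that MAD2 holds back, was at 46.6, 49.5 and 51.5 FPKM against 103.2, 115.5 and 115.5 FPKM (log2 -1.18). The third lowest was NUSAP1 (log2 -1.14), a microtubule-bundling protein. The called genes with the smallest changes were ZWILCH (-0.61), the third RZZ subunit, PPP2R5C (-0.60), a phosphatase regulatory subunit, and RCC2 (-0.57).

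Genes of both cell cycle phase lists were lower too. Of 44 G2/M genes that are not among the 46, 41 fell (median log2 fold change -1.08), led by HMMR (-1.36), GAS2L3 (-1.36) and MKI67 (-1.34), with CKS1B (-0.61), LBR (-0.55) and TUBB4B (-0.54) the least changed of those called. Of 41 S phase genes tested, 19 fell (median -0.48), with PRIM1 (-1.06) and DSCC1 (-0.98) the lowest and GMNN (-0.54), HELLS (-0.52) and RFC2 (-0.51) the least changed of those called. Their part in the lower levels of the centromere and kinetochore genes was not tested. Some G2/M genes, such as BUB1, CDC20 and NUSAP1, are also counted among the 42.

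**Figure D4:**
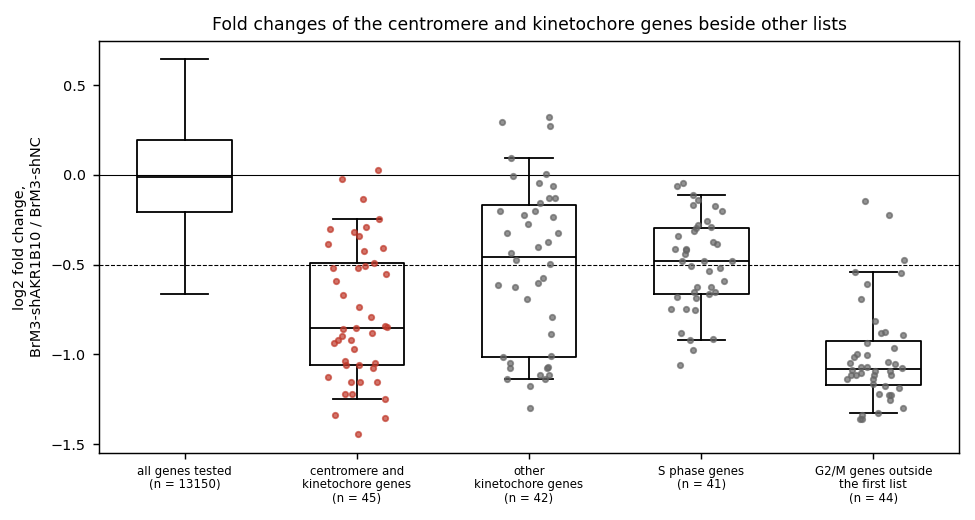
Log2 fold changes of all genes tested and of 4 gene lists, where each dot is a gene, boxes give the quartiles with the median, whiskers the 5th to 95th percentiles, and single genes of the first group are not drawn. The median of the centromere and kinetochore genes (-0.85) lies between those of the S phase genes (-0.48) and the other G2/M genes (-1.08).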

How the data were processed

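RNA-seq of 3 BrM3-shAKR1B10 and 3 BrM3-shNC libraries was used, with groups and replicate numbers taken from the sample labels. According to the supplementary methods and the submitters' processing notes, the authors enriched mRNA with poly-T beads, aligned paired reads with HISAT2 2.0.5 and counted them per gene with featureCounts 1.5.0-p3. The authors deposited FPKM values for 58735 genes, one column per library. The build, the use of strand and the handling of overlapping genes are not given in the sources used here, but the positions of all 58735 genes match GENCODE 29 (GRCh38).

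The 13150 genes whose mean reached 1 FPKM were tested with limma 3.58.1 (R 4.3.3, eBayes with a trend) on log2(FPKM + 0.1), and p-values were adjusted by Benjamini-Hochberg over all of them. Calls needed an adjusted p under 0.05 together with a log2 fold change beyond 0.5 in either direction, thresholds the study states. The pseudocount makes the changes of weakly expressed genes look smaller than they are. Reads recovered from FPKM and gene length, whole within 0.01 reads for 100% of values, gave the depth of 16964504 to 18709028 reads and an alternative with voom, and 3 reads stood for 0.163 to 0.177 FPKM in a gene of 1000 bases. The library sizes behind the FPKM values were not the reads on genes. They lay above them in each BrM3-shAKR1B10 library (17669819 against 17253067 in replicate 1). They lay below them in each BrM3-shNC library (18350584 against 18709028 in replicate 1). The part of this in the differences between scalings was not tested. Replicates of a group differed by more than sampling noise (chi-square per gene 2.45 to 5.42). In simulated data with 200 genes changed by a log2 fold of 1, 184 were recovered with 8 false calls among 13169 genes tested.

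The 46 genes, their roles and the other lists were chosen with earlier results of these data known, from general knowledge, so counts and medians of a list are descriptions. Values in all 6 libraries are given for AKR1B10, the 12 called genes with the lowest log2 fold change, the lowest and highest of each role with at least 3 tested genes, and genes under 1 FPKM (in reads). Of the other lists, the 3 lowest and 3 highest called genes are named, apart from 1 that is not reported here, as is 1 neighbor. CENPC, CKAP5, the partner pairs, the neighbors and the printed promoters were chosen after their values were seen. Promoter sequences came from RefSeq (GRCh38.p14). Alternatives tried were other pseudocounts (1 and 0.01), no filter, a mean FPKM of at least 5, TPM and median-of-ratios scaling, voom, a replicate block, no fold threshold, and each library left out in turn.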

Additional observations from a re-analysis of the deposited data

How the results depend on the processing

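Of the 33 centromere and kinetochore genes called lower, 28 were called under each of the 15 alternatives that tested them, all 33 had negative fold changes throughout, and none of the 46 was called higher. The number called lower ran from 25 (mean FPKM of at least 5, 35 tested) to 42 (no fold threshold), with 29 at a pseudocount of 1, 30 under TPM scaling and 30 by voom, and 32 to 34 with a library left out. The 5 that lost a call lay near the size threshold. CENPQ (-0.44 at a pseudocount of 1, -0.36 without BrM3-shAKR1B10 replicate 3, and -0.49 with an adjusted p of 0.0516 without BrM3-shNC replicate 2) and DSN1 (-0.47 at a pseudocount of 1, -0.45 without BrM3-shAKR1B10 replicate 2, -0.48 without BrM3-shNC replicate 1) also lost it under TPM scaling and voom, CKAP5 under TPM scaling (-0.48) and voom (-0.47), and CENPO (-0.42) and KNTC1 (-0.49) at a pseudocount of 1. CENPN was called in 4 of the 6 fits without a library, at -0.52 to -0.50. CENPT changed sign under TPM scaling (0.01) and voom (0.02) and without BrM3-shAKR1B10 replicate 2 (0.02) or BrM3-shNC replicate 1 (0.0010), and CENPC without BrM3-shNC replicate 3 (-0.06), neither being called. AKR1B10 stayed between -2.86 and -2.80. Over all genes, 532 were lower and 290 higher at a mean FPKM of at least 5 (fewer genes tested), 3044 and 2548 with no fold threshold, and 497 were higher at a pseudocount of 1, where the cause was not tested. With a library left out, 940 to 977 were lower and 649 to 765 higher. Of the other kinetochore genes, 30 were lower and 3 higher with no fold threshold, and 19 to 21 were lower with a library left out. Replicate numbers did not pair the libraries (correlations of deviations -0.0155 to 0.00388), and with the replicate block 33 of the 45 centromere and kinetochore genes were lower, with 967 lower and 719 higher over all genes. For genes such as OIP5 and SGO1, 69 to 105 reads in the silenced libraries limit the precision.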
